A study of Mus musculus with 32 samples.

Results

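The cytosolic ribosomal protein genes are the protein-coding genes named Rpl or Rps with a number, plus Rpsa, Rplp0, Rplp1 and Rplp2. Symbols came from the gene annotation of GRCm38, and kinases of the Rps6k family and pseudogenes were left out. The set held 83 genes of the 55401 gene identifiers in the files, 51 of the large (60S) and 32 of the small (40S) subunit. They were chosen by name and type and no value in the files entered the rule, but earlier results of these data were known when it was written.

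These proteins assemble around the ribosomal RNAs into the cytosolic ribosome, which translates the nuclear-encoded messages of the cell. Their messages are among the most abundant in growing cells, and many begin at a 5′ terminal oligopyrimidine (TOP) tract, a run of C and T in the DNA that starts with C and through which mTOR and LARP1 control translation. A few members have paralogues with a narrower expression, such as Rpl3l, which is made in skeletal and heart muscle.

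RNA was sequenced from the 3′ end in mice of 200 days of age, C57BL/6 by the labels. COX10 KO mice are homozygous for a floxed Cox10 gene, whose product is needed to assemble cytochrome c oxidase. Cre is driven in them by Myl1, a gene of skeletal muscle, so the deletion is directed to muscle and not to liver or hypothalamus. CTL mice are labelled as controls, and what Cox10 or Cre alleles they carry is not given in the sources used here. Muscle (calf, gastrocnemius and soleus) and liver came from 6 COX10 KO and 6 CTL mice each, 3 females and 3 males per genotype by the labels, and hypothalamus from 4 COX10 KO and 4 CTL males. Nothing in the labels says whether libraries of a group were prepared together, so p-values measure the spread between these samples.

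Start sites of members were read from the RefSeq promoter table of GRCm38.p6, which held 63 of the 83 genes. A TOP-like start was defined as a run of at least 6 C or T, beginning with C, within 5 bases of the annotated start on the strand of the gene. It was found in 26 of the 63 members (41.3%) and in 3229 of all 27025 genes with a promoter (11.9%). It was also found in 5 of the 12 genes with a promoter that were called higher in COX10 KO muscle (41.7%). Those 5 are printed to show the motif in genes the muscle result turns on, followed by Rpl28, whose muscle level was not called. Capitals mark the run.
Rps15a, chr7:118116136-118116153, minus strand: tgccatCTTCCCTCgccg
Rpl12, chr2:32961708-32961723, plus strand: atccgtCTTTTCggct
Rpl18, chr7:45718066-45718085, plus strand: aggccgCTCTTTCCCCgccc
Rpl34, chr3:130730388-130730403, minus strand: gacgtaCTTCCTgtcc
Rpl27a, chr7:109519185-109519214, plus strand: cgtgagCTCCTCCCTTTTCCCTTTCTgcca
Rpl28, chr7:4792957-4792976, plus strand: tcgtgtCTCTCTTTCCgtct
The runs ranged in length among these from 6 bases in Rpl12 and Rpl34 to 20 bases in Rpl27a. Rpl34 has another annotated start, not printed, with a run of 8 bases. A match is a description of these letters near the annotated start, and no run in the window says nothing about the factors that act on a message.

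The libraries held 434494 to 22321322 counts. The shallowest of all, CTL muscle 2 (434494 counts), also stood apart in its markers: hepatocyte genes summed to 2249 CPM (read counts scaled to the effective library size) and adipocyte genes to 2843 CPM there, against CTL medians of 66.6 CPM and 167 CPM, so results that rest on it are given with and without it. COX10 KO liver 3 (674311 counts) was the highest of the 12 liver libraries for 23 of 77 members and the lowest for 33, and CTL hypothalamus 1 (22321322 counts) was the lowest of 8 for 51 of 77 members. The labelled sex of CTL liver 1 and 4 did not match their Xist and Y-linked counts. Cox10 itself averaged 121 ± 19.8 CPM in COX10 KO and 99.1 ± 29.9 CPM in CTL muscle (SD, n = 6 each, without scaling factors). The 3′ reads of Cox10 need not lie in the deleted part, which is not given in the sources used here, so they are no check of the knockout. The reads carry no molecular identifiers, and intervals therefore cover counting error only.

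Members differed in how well short reads can be assigned to them, since many have processed copies in the genome. Of the 86-base words of the annotated 3′ ends, the same length as a read, 15 of the 83 members shared none with another gene, among them Rps20, Rpl12, Rpl5, Rpl27a, Rpl4, Rpl37 and Rpl3l. In 26 members over 50% of the words were shared, and these had a median of 133 CPM in CTL muscle, against 248 CPM in the 24 members with up to 10% shared. Rpl13, Rpl24, Rps10 and Rpl10l had no counts in any of the 32 libraries. Rpl13 shared 86.7% of its words with 8 genes, Rpl24 overlaps Gm28037 and Rps10 overlaps RPS10-NUDT3, so a count of 0 there is not read as absence of the message. Rps6, the best known target of S6 kinase, shared 86.7% of its words with 10 genes and averaged only 14.3 ± 8.32 CPM in COX10 KO and 15.8 ± 5.42 CPM in CTL muscle. A CPM value therefore says how many reads were assigned to a gene. It is compared between genotypes for 1 gene at a time, and neither CPM nor the percent of a pair of paralogues compares message levels between genes.

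**Figure D1:**
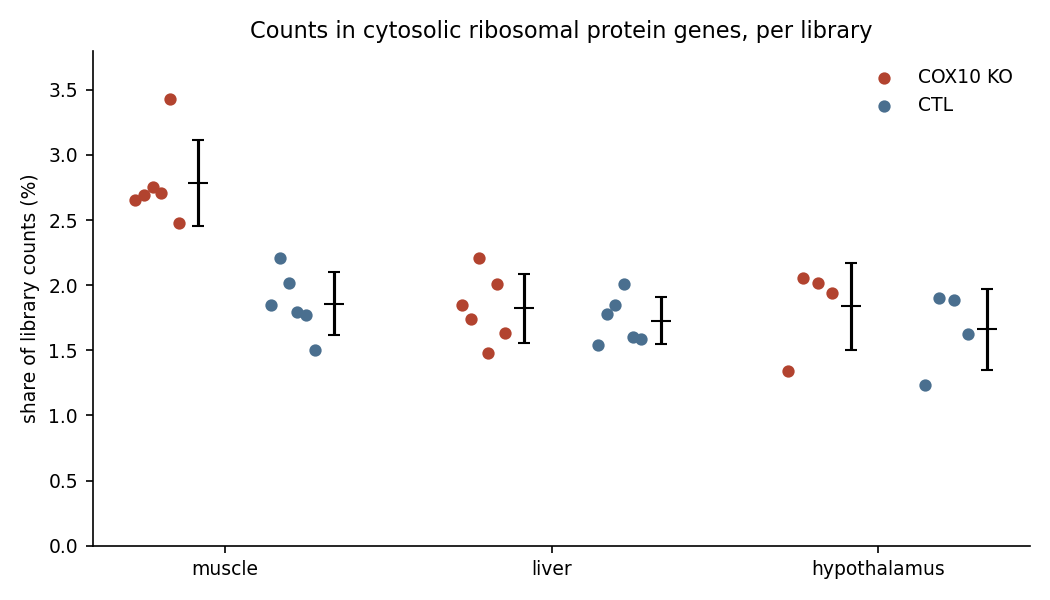
Share of each library's counts that fell in the 83 ribosomal protein genes, in percent, for COX10 KO (left of each pair) and CTL (right). Points are libraries, and the bar beside them gives the mean and SD. All 6 COX10 KO muscle libraries, 2.48% to 3.43%, sit above all 6 CTL muscle libraries, 1.5% to 2.21%, and the genotypes overlap in liver and hypothalamus. Same-numbered hypothalamus libraries are not joined.

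Ribosomal protein genes took a larger share of the muscle library in COX10 KO mice. Their share was 2.65%, 2.69%, 2.76%, 2.71%, 3.43% and 2.48% of counts in COX10 KO muscle 1 to 6, against 1.85%, 2.21%, 2.02%, 1.80%, 1.77% and 1.5% in CTL muscle 1 to 6. The groups did not overlap, and the means were 2.79% ± 0.330 in COX10 KO and 1.86% ± 0.241 in CTL (SD, n = 6 each). Counting error was small beside this, since even the shallowest library, CTL muscle 2, had a 95% Wilson interval of 2.17% to 2.26%. Both subunits took part: the large subunit held 1.47% ± 0.172 of counts in COX10 KO and 1.00% ± 0.137 in CTL, and the small subunit 1.31% ± 0.160 in COX10 KO and 0.854% ± 0.107 in CTL. No test was run on the sum. In each muscle group the shallowest library had the highest share (3.43% in COX10 KO 5 with 1734571 counts, 2.21% in CTL 2).

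The share is relative to everything else in the library. Mitochondrially encoded genes took 24.1% ± 1.56 of counts in COX10 KO and 25% ± 2.16 in CTL muscle, and without them the members held 3.67% ± 0.380 in COX10 KO and 2.47% ± 0.302 in CTL. Without the 10 most abundant genes of each library the shares were 4.14% ± 0.419 in COX10 KO and 2.98% ± 0.268 in CTL. In bulk tissue, more cells that express these genes and more message per cell cannot be told apart.

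In liver the genotypes overlapped. The share was 1.85%, 1.74%, 2.21%, 1.48%, 2.01% and 1.64% in COX10 KO liver 1 to 6, against 1.54%, 1.78%, 1.85%, 2.01%, 1.6% and 1.58% in CTL liver 1 to 6. The highest was the shallow COX10 KO liver 3. In hypothalamus it was 1.34%, 2.05%, 2.02% and 1.94% in COX10 KO 1 to 4, against 1.23%, 1.90%, 1.88% and 1.63% in CTL 1 to 4. The groups overlapped, and the library numbered 1 was the lowest in both genotypes. No label states a pairing in hypothalamus, but same-numbered libraries deviated together and were taken as pairs. Within these pairs, inferred from the same data, the COX10 KO share was the higher in 4 of 4.

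Single members were compared by the quasi-likelihood test of edgeR with a Benjamini-Hochberg adjustment over all genes tested, and a gene was called at an adjusted p under 0.05. In muscle 14 of the 78 members tested were called higher in COX10 KO (17.9%), where 6.9% of all 11636 genes were called higher, and none was called lower (7.43% of all genes). The log2 fold change was above 0 in 67 of 78 members, against 48.1% of all genes, and its median was 0.34 for the members and -0.03 for all genes. At an unadjusted p under 0.05 there were 35 members higher and 1 lower (14.1% and 15.6% of all genes). DESeq2 called 27 of 79 members higher, where it called 4.8% of all genes higher, and all 14 were among them. That 4.8% is over 21525 genes with any count, without the expression filter of edgeR, so it is not comparable with the 6.9%. Without CTL 2 edgeR called 22 members higher (8.27% of all genes). In females alone it called 0 (1.45% of all genes) and in males alone 1 (1.49%), so that fewer genes of any kind were called. Scaling by library size only called 35 members higher (10.8% of all genes) and 0 lower, with 1252 of all genes higher and 477 lower, against 803 and 865 with TMM factors. The called genes were 9 of the 47 large subunit genes tested and 5 of the 31 small subunit genes, with medians of 0.32 and 0.38.

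**Figure D2:**
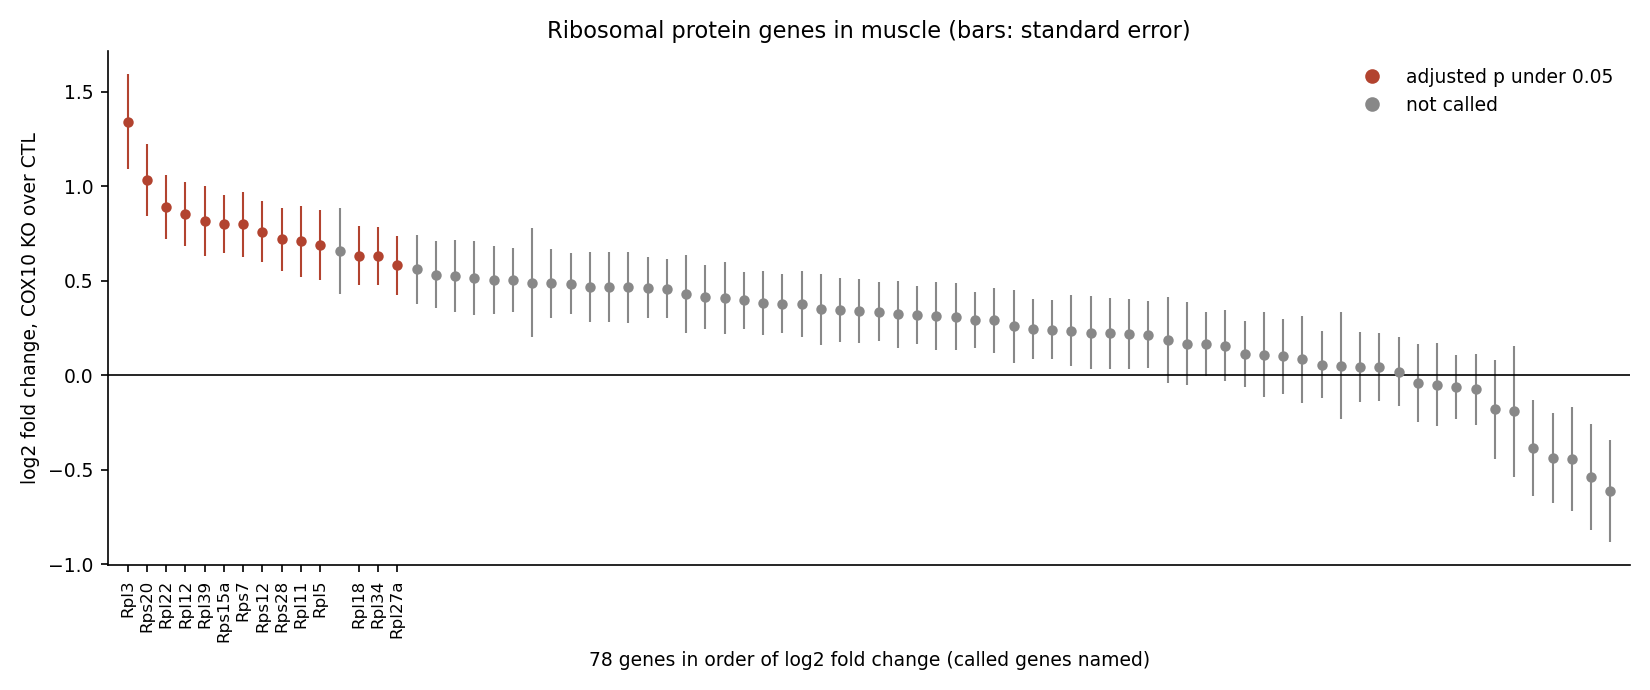
Log2 fold change of COX10 KO over CTL muscle for the 78 ribosomal protein genes tested, from highest to lowest, with standard errors. Red points, named on the axis, are the 14 genes with an adjusted p under 0.05. They run from Rpl3 at 1.34 to Rpl27a at 0.58, and 67 of 78 genes lie above 0.

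Among the small subunit genes, Rps20, a protein of the head of the 40S subunit, showed the largest change. Its level was 1185, 1211, 1385, 1372, 1805 and 909.6 CPM in COX10 KO muscle 1 to 6, against 615, 505, 680, 689, 748 and 611 CPM in CTL muscle 1 to 6. No CTL mouse reached the lowest COX10 KO mouse, with a log2 fold change of 1.03 ± 0.19 (SE, adjusted p = 0.00247, edgeR). The gene (ENSMUSG00000028234.6) lies on the minus strand at chr4:3831334-3835665 of GRCm38, and none of its 3′ words is shared with another annotated gene.

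Rps15a ranged in COX10 KO muscle from 432 to 558 CPM (median 446), and in CTL from 244 to 298 CPM (median 274). It encodes a 40S protein, and its groups did not overlap (log2 fold change 0.80 ± 0.15, SE, adjusted p = 0.00335). Rps7, a 40S protein also known to bind MDM2, ranged in COX10 KO muscle from 309.7 to 446 CPM (median 370.02), against 168 to 243 CPM (median 225) in CTL. Its log2 fold change was 0.80 ± 0.17 (SE, adjusted p = 0.00642).

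Rps12, another 40S gene, had 962 to 1277 CPM (median 1092) in COX10 KO muscle and 599 to 709.6 CPM (median 663) in CTL. The groups did not overlap (log2 fold change 0.76 ± 0.16, SE, adjusted p = 0.00646). Rps28 was the one called member whose groups overlapped, by a single mouse: it ranged from 197 to 349 CPM (median 307) in COX10 KO muscle and from 158 to 201 CPM (median 166) in CTL, with a log2 fold change of 0.72 ± 0.17 (SE, adjusted p = 0.0105).

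Among the large subunit genes, Rpl3, which lies close to the peptidyl transferase centre, showed the largest log2 fold change of all members. Its level was 120, 111, 114, 125, 168 and 119 CPM in COX10 KO muscle 1 to 6, against 35.8, 102.9, 54.5, 42.6, 46.3 and 31.5 CPM in CTL muscle 1 to 6. All COX10 KO mice were above all CTL mice, the highest CTL value being that of CTL 2 (log2 fold change 1.34 ± 0.25, SE, adjusted p = 0.00271; without CTL 2, 1.62 with adjusted p = 8.44e-05). Rpl3 (ENSMUSG00000060036.14, chr15:80077791-80091868, minus strand) shares 81.3% of its 3′ words with 3 other genes.

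**Figure D3:**
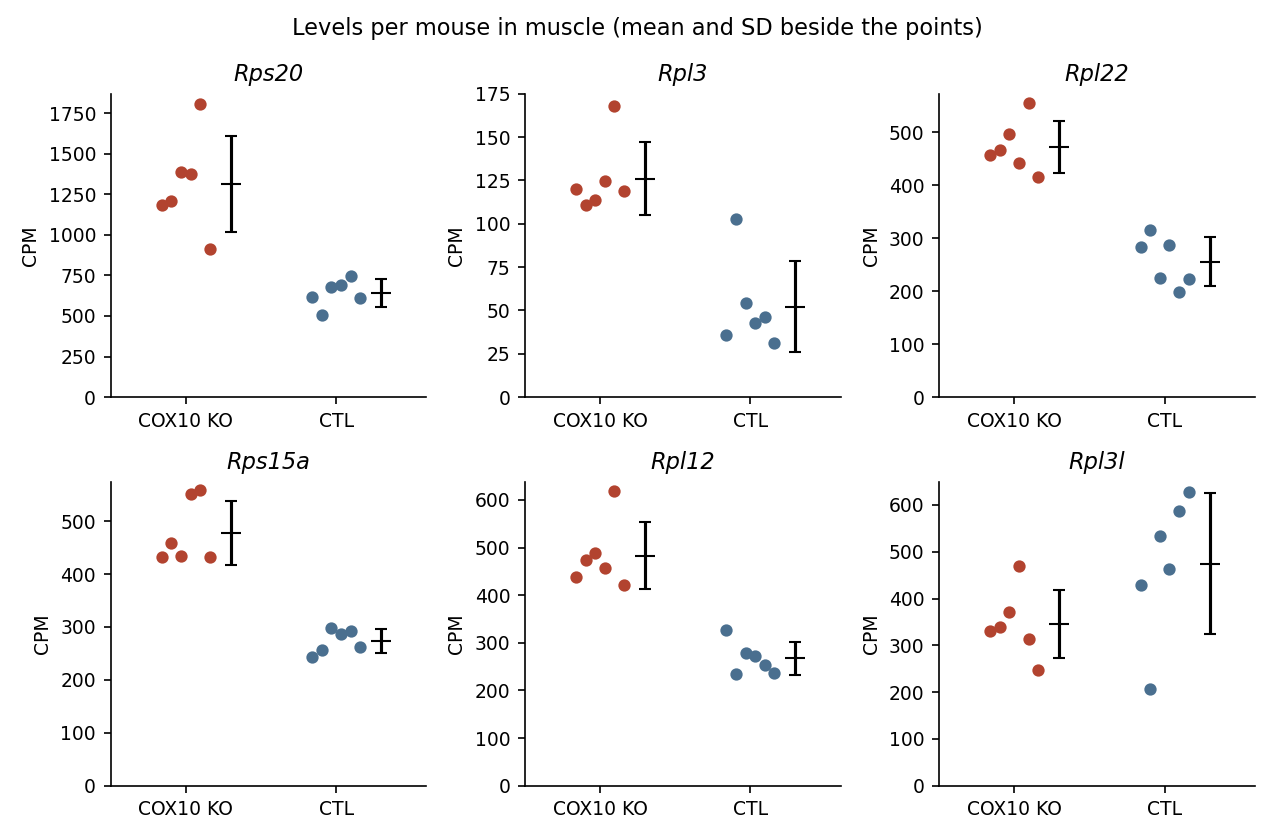
CPM per mouse of 6 ribosomal protein genes in muscle, COX10 KO left and CTL right, each point 1 mouse, with the mean and SD beside the points and an axis that starts at 0. Rps20, Rpl3, Rpl22, Rps15a and Rpl12 do not overlap between genotypes. Rpl3l, the muscle paralogue of Rpl3, overlaps, with 247 to 470.4 CPM in COX10 KO and 206 to 628 CPM in CTL.

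Its paralogue Rpl3l (ENSMUSG00000002500.15, chr17:24727820-24736143, plus strand) was not called. Rpl3l had 332, 340.1, 370.4, 470.4, 314 and 247 CPM in COX10 KO muscle 1 to 6, against 428, 206, 534, 463, 586 and 628 CPM in CTL muscle 1 to 6. The groups overlapped (log2 fold change -0.44 ± 0.24, SE, adjusted p = 0.231). Over all fits without 1 library the log2 fold change was -0.55 to -0.27, with an adjusted p of up to 0.491 (edgeR). Without CTL 2 it was -0.55 (adjusted p = 0.0596, edgeR), closer to the threshold but still not called. The groups still overlapped then, by the highest COX10 KO mouse (470.4 CPM), which lay above the CTL mice at 428 and 463 CPM. The other COX10 KO mice, at up to 370.4 CPM, lay below every CTL mouse except CTL 2. CTL 2 had the lowest Rpl3l of the group and the highest Rpl3.

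Of the counts in the pair, Rpl3 made up 27.2% ± 5.41 in COX10 KO and 11.8% ± 10.7 in CTL muscle (SD, n = 6 each). By mouse this was 26.6%, 24.6%, 23.5%, 21.0%, 34.9% and 32.5% in COX10 KO, against 7.72%, 33.3%, 9.25%, 8.42%, 7.32% and 4.78% in CTL. The CTL mice other than CTL 2 lay below all COX10 KO mice, and CTL 2 lay within the COX10 KO range. In liver and hypothalamus Rpl3l had 5 to 25 counts summed over a group, and Rpl3 made up at least 97.8% of the pair in every library.

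**Figure D4:**
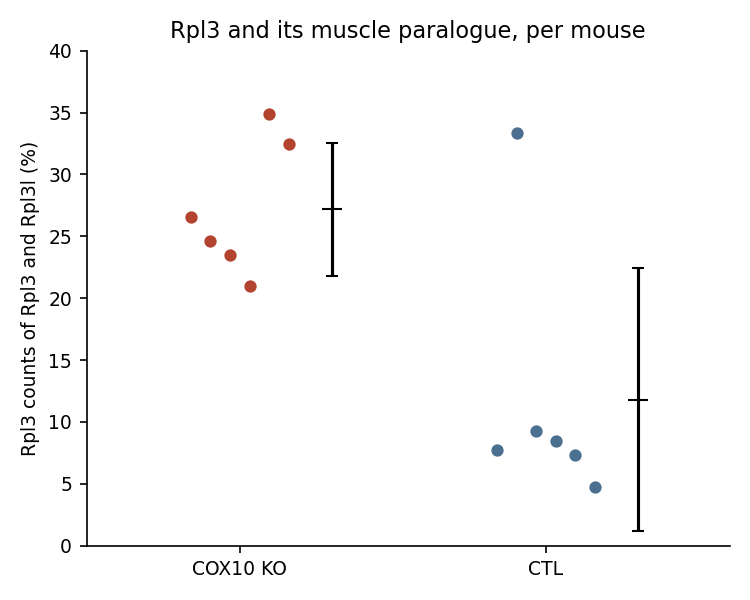
Counts of Rpl3 as a percent of the counts of Rpl3 and Rpl3l together in each muscle library, COX10 KO left and CTL right, with the mean and SD beside the points. COX10 KO mice lie between 21.0% and 34.9%, and CTL mice between 4.78% and 9.25% except for CTL 2 at 33.3%.

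Rpl22, a 60S protein that also binds RNA outside the ribosome, ranged from 416 to 556 CPM (median 462) in COX10 KO muscle and from 199 to 316 CPM (median 255) in CTL, without overlap (log2 fold change 0.89 ± 0.17, SE, adjusted p = 0.00321). Its paralogue Rpl22l1 had 60.1 to 98.1 CPM in COX10 KO and 51.7 to 91.9 CPM in CTL, which overlap (log2 fold change 0.04 ± 0.18, SE, adjusted p = 0.91). Rpl22 made up 85.9% ± 3.14 of the pair in COX10 KO and 77.3% ± 2.55 in CTL muscle, without overlap between the mice (80.9% to 90.2% and 72.4% to 79.3%).

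Rpl12, a protein of the stalk base, ranged from 421 to 618 CPM (median 466) in COX10 KO muscle and from 235 to 327 CPM (median 263) in CTL (log2 fold change 0.85 ± 0.17, SE, adjusted p = 0.00378). Rpl39, a small protein of the exit tunnel, averaged 225 ± 31.95 CPM in COX10 KO and 128 ± 30.0 CPM in CTL. Rpl34 averaged 411 ± 33.5 CPM in COX10 KO and 265 ± 25.3 CPM in CTL, and Rpl18 averaged 189 ± 26.0 CPM in COX10 KO and 121 ± 13.2 CPM in CTL. None of these 4 overlapped between genotypes.

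Rpl5 and Rpl11 join the 5S ribosomal RNA in the particle that also binds MDM2, the inhibitor of p53. Rpl5 ranged from 103 to 123 CPM in COX10 KO muscle, against 42.3 to 90.5 CPM in CTL, with a log2 fold change of 0.69 ± 0.18 (SE, adjusted p = 0.022). Rpl11 ranged from 690.3 to 882 CPM in COX10 KO muscle, against 346 to 577 CPM in CTL, with a log2 fold change of 0.71 ± 0.19 (SE, adjusted p = 0.0209). Both were free of overlap, but lost the call when CTL 5 or CTL 6 was left out, with adjusted p of up to 0.055 for Rpl5 and 0.0584 for Rpl11. Rpl27a (88.1 ± 8.79 CPM in COX10 KO, 58.3 ± 8.63 CPM in CTL) did so without CTL 6 (adjusted p = 0.0659). The other 11 called genes were called whichever of the 12 libraries was left out.

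Counted by mice rather than by the model, 19 of the 78 members had every COX10 KO mouse above every CTL mouse, where 4.08% of all genes did, and none had every COX10 KO mouse below (2.31% of all genes). They were 13 of the 14 called genes and Rpl31, Rpl32, Rps21, Rps25, Rps29 and Rps3. Rps29, a 40S gene, had 807.7 to 990.4 CPM in COX10 KO muscle and 463 to 756 CPM in CTL. It missed the threshold of edgeR (adjusted p = 0.0538) but was called by DESeq2.

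The stalk proteins, which recruit the translation factors, and the laminin-binding Rpsa were not called by edgeR with TMM factors. Scaling by library size only called Rplp0 and Rpsa higher, but not Rplp1 or Rplp2. Rplp0 averaged 389.7 ± 26.8 CPM in COX10 KO and 328 ± 42.9 CPM in CTL muscle, Rplp1 averaged 861 ± 143 CPM in COX10 KO and 689 ± 115 CPM in CTL, and Rplp2 averaged 467 ± 54.0 CPM in COX10 KO and 398 ± 107 CPM in CTL. Their log2 fold changes were 0.25, 0.32 and 0.23, with adjusted p from 0.236 to 0.472, and each overlapped between genotypes. Rpsa averaged 169.7 ± 34.0 CPM in COX10 KO and 126 ± 32.4 CPM in CTL (log2 fold change 0.43, adjusted p = 0.172).

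Rpl4, Rpl37 and Rps26, which drew many reads in muscle, were not called by edgeR with TMM factors. DESeq2 and scaling by library size only called Rpl4 and Rpl37 higher, but not Rps26. Rpl4 averaged 1243 ± 189 CPM in COX10 KO and 875 ± 224 CPM in CTL (log2 fold change 0.51, adjusted p = 0.0914). Rpl37 averaged 1120.2 ± 124 CPM in COX10 KO and 838 ± 130.4 CPM in CTL (log2 fold change 0.41, adjusted p = 0.116), and Rps26 averaged 1011 ± 141 CPM in COX10 KO and 869 ± 176 CPM in CTL (log2 fold change 0.22, adjusted p = 0.467). The groups of each overlapped.

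Among the remaining paralogues, Rps27l, a p53-responsive relative of Rps27, lay just outside the threshold, with 137 to 172 CPM in COX10 KO muscle and 80.3 to 147 CPM in CTL (log2 fold change 0.56 ± 0.18, SE, adjusted p = 0.0516). DESeq2 called Rps27l higher. Rps27 made up 53.1% ± 3.70 of this pair in COX10 KO and 62.2% ± 9.21 in CTL muscle. Rpl7l1, which acts in ribosome assembly, had 15.0 ± 4.83 CPM in COX10 KO and 19.4 ± 5.47 CPM in CTL (log2 fold change -0.39, adjusted p = 0.328), and its parent Rpl7 had 357 ± 31.2 CPM in COX10 KO and 302 ± 30.3 CPM in CTL (log2 fold change 0.24, adjusted p = 0.313). Rpl10 (94.6 ± 16.6 CPM in COX10 KO, 75.6 ± 13.98 CPM in CTL, adjusted p = 0.193) and Rps4x (75.1 ± 4.79 CPM in COX10 KO, 60.3 ± 9.63 CPM in CTL, adjusted p = 0.177) were not called. Scaling by library size only called Rps4x higher, but not Rpl10. Rpl39l gave 14 counts over all libraries and was not tested.

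None of the 11 members with a log2 fold change below 0 was called, and several of them split the CTL mice. Rpl28, a 60S protein, had 83.03, 78.3, 77.1, 82.5, 101.4 and 62.2 CPM in COX10 KO muscle 1 to 6, against 76.3, 82.7, 211, 64.6, 145 and 158 CPM in CTL muscle 1 to 6. The 3 high CTL mice are 3, 5 and 6 (log2 fold change -0.61 ± 0.27, SE, adjusted p = 0.141; without CTL 4, -0.75 with adjusted p = 0.0489). Over all fits without 1 library the Rpl28 value was -0.75 to -0.32, with an adjusted p of up to 0.435 (edgeR). Rps15 had 149 ± 27.9 CPM in COX10 KO and 217 ± 101.2 CPM in CTL (log2 fold change -0.54, adjusted p = 0.211), and Rps14 had 574 ± 103 CPM in COX10 KO and 658 ± 298 CPM in CTL (log2 fold change -0.18, adjusted p = 0.697). Rpl29 (19.1 ± 2.82 CPM in COX10 KO, 25.7 ± 12.4 CPM in CTL) and Rps6 were also below 0.

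Genes that act with the ribosome were counted from 4 lists. Of 38 ribosome biogenesis factors tested, 7 rose and 1 fell in COX10 KO muscle, where 6.9% of all genes were called higher and 7.43% lower, with a median log2 fold change of 0.35 against -0.03 for all genes. Gnl3 (nucleostemin) had 78.4 to 200.5 CPM in COX10 KO and 27.2 to 54.0 CPM in CTL (log2 fold change 1.59 ± 0.26, SE, adjusted p = 0.00129). The calls of Ltv1, Nhp2 and Rrs1 were lost in 11, 12 and 10 alternatives. Nip7, a 60S assembly factor, had 11.3 to 27.1 CPM in COX10 KO and 6.8 to 14.3 CPM in CTL (log2 fold change 1.06, adjusted p = 0.00442), and Nop10, of the H/ACA particles, had 158 to 216 CPM in COX10 KO and 71.7 to 139.7 CPM in CTL (log2 fold change 0.91, adjusted p = 0.00753). The gene that fell was Dkc1, the pseudouridine synthase of those same particles, at 12.7 ± 4.44 CPM in COX10 KO and 31.7 ± 21.9 CPM in CTL (adjusted p = 0.0442), and CTL 3, 5 and 6 alone were above the COX10 KO mice. Its call held in 10 alternatives and was lost in 13, with an adjusted p of up to 0.216 when a library was left out.

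Of 15 genes of RNA polymerase I and ribosomal DNA transcription, Polr1b (20.2 ± 3.48 CPM in COX10 KO, 8.29 ± 3.70 CPM in CTL, adjusted p = 0.00895) and Polr1c (24.3 ± 3.56 CPM in COX10 KO, 14.6 ± 2.30 CPM in CTL, adjusted p = 0.0196) rose (6.9% of all genes), and the median was 0.30. Ubtf, the upstream binding factor of that polymerase, was not called (log2 fold change 0.66, adjusted p = 0.0525). Of 23 translation factors and other TOP messages tested, 3 rose, Rack1 (log2 fold change 0.52), Nap1l1 (0.58) and Naca (0.53), with a median of 0.20, and none fell (6.9% and 7.43% of all genes). None of these 3 calls was stable: those of Rack1, Nap1l1 and Naca were lost in 12, 11 and 14 alternatives, with adjusted p of up to 0.0909, 0.106 and 0.107 when a library was left out.

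Of 13 regulators of ribosomal protein synthesis tested, 2 rose and 1 fell, with a median of -0.27. Eif4ebp1, which encodes the translation repressor 4E-BP1, had 140.0 to 244 CPM in COX10 KO and 35.6 to 115 CPM in CTL (log2 fold change 1.75, adjusted p = 0.000431). Mtor had 40.6 to 66.3 CPM in COX10 KO and 20.2 to 37.4 CPM in CTL (log2 fold change 0.81, adjusted p = 0.0104). Larp1 fell, to 16.7 ± 8.54 CPM in COX10 KO against 28.1 ± 9.23 CPM in CTL (log2 fold change -0.80, adjusted p = 0.0465), but its call held in 9 alternatives and was lost in 15, with an adjusted p of up to 0.125 when a library was left out. The share of all genes called was 6.9% higher and 7.43% lower. In liver and hypothalamus no gene of the 4 lists was called.

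Some markers of other cell types and fibre states moved with genotype in the same muscle libraries. Of all genes, 6.9% were called higher and 7.43% lower. Of 8 satellite cell and regeneration markers tested, 6 rose (Myog, Myh3, Myh8, Mymk, Ncam1 and Chrna1), and the list summed to 381 to 470.01 CPM in COX10 KO and 44.1 to 83.6 CPM in CTL. Pax7, Myf5 and Myod1 of that list were not called. Of 8 fibroblast markers tested none rose and 1 fell, and of 5 endothelial markers none was called. Of 11 macrophage markers 3 rose (Cd68, C1qa and Lyz2), with sums of 242 to 582 CPM in COX10 KO and 129.9 to 404 CPM in CTL. Of 10 fibre genes Myl1, Tnnt3 and Myh4 fell, and the list summed to 59378 to 104852 CPM in COX10 KO and 55618 to 158252 CPM in CTL, the lowest CTL value being that of CTL 2. The defining B-cell marker Cd79a was at 0, and no lymphocyte marker had enough counts to be tested. The part of these in the ribosomal protein result was not tested.

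**Figure D5:**
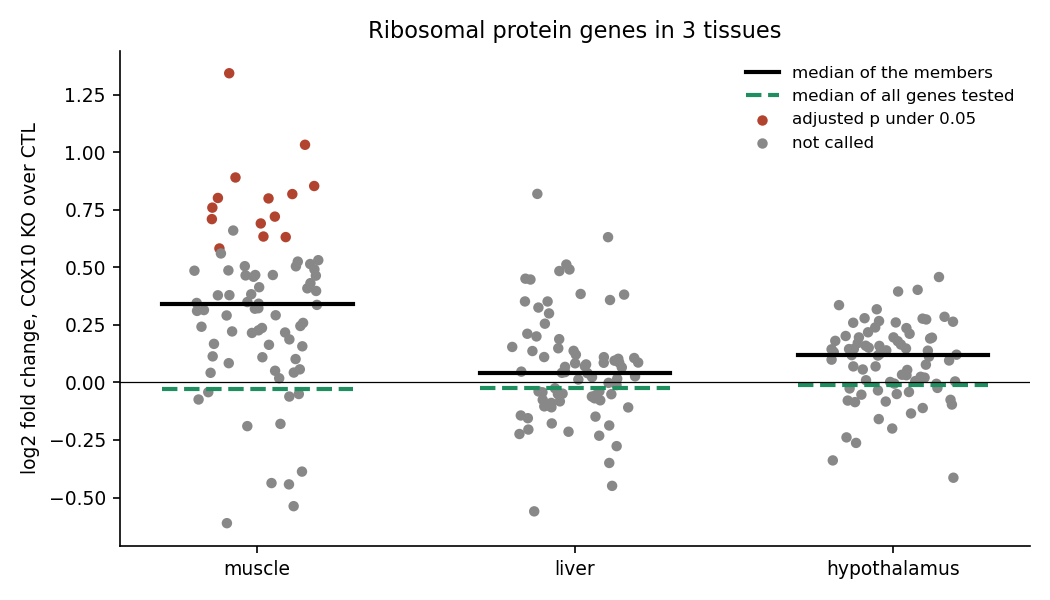
Log2 fold change of COX10 KO over CTL for each ribosomal protein gene in muscle (78 genes), liver (77) and hypothalamus (77). Red points have an adjusted p under 0.05, black lines are the medians of the members (0.34, 0.04 and 0.12) and dashed green lines the medians of all genes tested (-0.03, -0.02 and -0.01).

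In liver no member was called (0 of 77, where 0.0206% of all 9707 genes were called higher and 0.0721% lower). At an unadjusted p under 0.05 none of the 77 passed in edgeR either (2.06% of all genes higher, 2.93% lower), and DESeq2 called 0 of 79. The log2 fold change was above 0 in 44 of 77 members (47.2% of all genes). No member was free of overlap (0.196% of all genes above, 0.247% below), and the median log2 fold change was 0.04 against -0.02 for all genes. The most raised members were Rps14 and Rps20, and both rest on 1 library. Rps20 had 325, 425, 1990, 358, 502 and 508 CPM in COX10 KO liver 1 to 6, against 418, 443, 401, 506, 376 and 355 CPM in CTL liver 1 to 6. Its log2 fold change of 0.63 (adjusted p = 0.997) was 0.01 without COX10 KO liver 3. Rps14 had 2749 CPM in that library and 241 to 906 CPM in the other COX10 KO livers, against 279 to 712 CPM in CTL, and its log2 fold change of 0.82 was 0.21 without it. Rps15a had 160.4 to 216 CPM in COX10 KO and 176 to 214 CPM in CTL liver, and Rpl3 had 156 to 249 CPM in COX10 KO and 156 to 272 CPM in CTL. The same library held the highest Rpl7 (953.6 CPM), Rpl8 (906 CPM) and Rps13 (1123 CPM), whose other COX10 KO livers reached 371, 319 and 477 CPM, against at most 333, 279 and 433 CPM in CTL. Rpl36 had 104 to 195 CPM in COX10 KO and 78.3 to 162 CPM in CTL. Among the lowered, Rpl22l1 had 53.3 ± 36.4 CPM in COX10 KO and 72.4 ± 22.9 CPM in CTL. COX10 KO liver 3 was also the lowest for Rps2 (8.12 CPM) and Rps3a1 (6.5 CPM). The other COX10 KO livers had 196 to 315 CPM of Rps2, against 193 to 367 CPM in CTL, and 54.5 to 88.1 CPM of Rps3a1, against 55.8 to 115 CPM in CTL. Rps24, Rpl13a and Rpl17 lay at log2 fold changes of -0.23, -0.19 and -0.22. The adjusted p was 0.997 for each of these liver genes. Rps26 had 828 ± 157 CPM in COX10 KO and 802 ± 202 CPM in CTL liver.

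In hypothalamus no member was called, and no gene of the 13504 tested was (0%). None of the 77 members reached an unadjusted p under 0.05 in edgeR, where 0.889% of all genes did so higher and 0.674% lower, and DESeq2 called 0 of 79. None was free of overlap (0.674% of all genes above, 0.733% below). With the library number as a block, 14 members were higher and 1 lower at an unadjusted p under 0.05 (4.89% and 4.55% of all genes), and 0 were called. The log2 fold change was above 0 in 56 of 77 members (47.5% of all genes), with a median of 0.12 against -0.01 for all genes, and leaving out CTL hypothalamus 1 alone gave a median of -0.01. Leaving out both libraries numbered 1, a choice made after seeing the data, gave a median of 0.10 with 47 of 77 members above 0. Rps14 had 830.4, 1150, 939 and 736 CPM in COX10 KO 1 to 4, against 722, 879, 680.5 and 379 CPM in CTL 1 to 4, which overlap. Rps20 had 319.9, 521, 429 and 428 CPM in COX10 KO, against 292, 429, 338 and 232 CPM in CTL. Both genes were higher in COX10 KO in 4 of 4 same-numbered pairs, a pairing inferred from these same data. Rpl18 had the smallest p of the raised members, at 81.0 ± 18.8 CPM in COX10 KO and 61.4 ± 11.7 CPM in CTL (SD, n = 4 each; adjusted p = 1), and Rpl7a of the lowered, at 57.9 ± 10.04 CPM in COX10 KO and 73.6 ± 29.9 CPM in CTL. Rps19, Rpl14 and Rpl8 had log2 fold changes of 0.34, 0.27 and 0.32, and Rpl15, Rpl35a, Rpl30 and Rps6 of -0.41, -0.26, -0.20 and -0.24. Rpl37 had 1156 ± 283 CPM in COX10 KO and 994 ± 216 CPM in CTL hypothalamus.

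An interaction term tested whether the effect in muscle differed from that in another tissue. Against liver, 1 of 78 members was called, with the larger effect in muscle (1.17% of all 11661 genes), and none the other way (0.986%). At an unadjusted p under 0.05 there were 11 larger and 1 smaller in muscle (8.9% and 9.23% of all genes), and 60 of 78 differences were above 0 (49.3% of all genes). This was Rps15a, whose effect in muscle exceeded that in liver by 0.93 ± 0.24 on the log2 scale (SE, adjusted p = 0.0398). It was lost in most of the fits without 1 library, whose adjusted p reached 0.0922. Rpl3 (1.26 ± 0.35, adjusted p = 0.0557), Rpl12 (0.95 ± 0.26, adjusted p = 0.0572), Rpl22 (0.95 ± 0.30, adjusted p = 0.092) and Rps7 (0.87 ± 0.27, adjusted p = 0.0945) missed the threshold. Leaving out CTL muscle 2 gave Rpl3 a difference of 1.49 (adjusted p = 0.00688). Over all fits without 1 library the Rpl3 difference was 1.13 to 1.49, with an adjusted p of up to 0.117.

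Against hypothalamus no member was called (1.21% of all 14618 genes were larger in muscle and 0.725% smaller), and 13 of 78 members were larger in muscle at an unadjusted p under 0.05 (8.12% of all genes) and 0 smaller (8.56%). The difference was above 0 in 64 of 78 members (48.1% of all genes). Rpl3 had a difference of 1.23 ± 0.35 (SE, adjusted p = 0.0747). Leaving out CTL muscle 2 gave 1.49 (adjusted p = 0.00561), and leaving out CTL hypothalamus 1 gave 1.36 (adjusted p = 0.0452). Over all fits without 1 library the Rpl3 difference was 1.10 to 1.49, with an adjusted p of up to 0.155. For most members a difference between tissues was therefore not shown, although 14 were called in muscle and none elsewhere.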

How the data were processed

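The deposited files hold raw counts of reads per gene, 1 file for each of 32 libraries. The authors prepared QuantSeq 3′ libraries, sequenced 86-base single-end reads, removed adapters with BBDuk, and used STAR 2.5.0a for alignment to the GRCm38.p6 genome and HTSeq 0.6.1 for counting. The annotation release and the strand setting are not given in the sources used here. Symbols matched 55141 of 55401 identifiers, and all 83 members.

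Separate fits for the tissues used edgeR 4.0.16 under R 4.3.3, with TMM factors, filterByExpr, the quasi-likelihood F test and sex as covariate in muscle and liver. Tissues were compared in joint fits. CPM use TMM-scaled library sizes. Tables were made in Python 3.11.15. The pipeline was tested on simulated data. Totals ran from 434494 to 22321322 counts.

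The members, gene lists and naming rule (paralogue pairs, 6 smallest p per direction and tissue, 5 highest CPM, stalk genes, Rps6 and Rpsa, 5 smallest p between muscle and liver, 3 per companion list) were chosen with earlier results of these data known. Not every gene the rule selects is reported here. The other members printed were called, non-overlapping or chosen after their values were seen.

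Alternatives were DESeq2 1.42.0, other scaling factors, filters, thinning, no sex term, each sex, a replicate block and leaving out libraries. Same-numbered hypothalamus libraries deviated together (correlations from 0.227 to 0.826 over 4 pairs), so their numbers were taken to pair them, although 3 of 4 correlated best with their own number and no label states a pairing. The main hypothalamus fit had no term for these pairs, which entered only the block and the counts of pairs. Proteins and the 20 members without a promoter entry were not analysed here.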

Additional observations from a re-analysis of the deposited data

Results flagged for a closer look

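Of 68 groups of 4 to 6 mice examined for a value far from the rest, 10 had one. Chance flags about 1 in 20 independent groups, but these groups share libraries, so the count is not compared with that rate. In muscle these were the share of COX10 KO 5 (3.43% of counts), the same mouse for Rpl3 (168 CPM), Rpl12 (618 CPM) and Rpl18 (240.4 CPM), the low Rplp0 of a COX10 KO mouse (338 CPM) and the Rpl3 of CTL 2 (102.9 CPM). In liver, COX10 KO 3 stood far above its group for Rps20 (1990 CPM) and Rps14 (2749 CPM). In hypothalamus, COX10 KO 1 stood below its group in the share (1.34% of counts) and in Rpl3 (235 CPM).

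The effect of the knockout on Rps15a differed between muscle and liver in the interaction test, by 0.93 on the log2 scale (adjusted p = 0.0398, edgeR), and 6 of 6 COX10 KO muscles but 1 of 6 COX10 KO livers exceeded the highest CTL value.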

How the results depend on the processing

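The 14 members called higher in COX10 KO muscle became 27 with DESeq2, 35 with scaling by library size only, 0 in females only and 1 in males only (Rpl3), where 1.45% and 1.49% of all genes were called higher, against 6.9% with both sexes. They were 11 to 22 when a library was left out, the highest without CTL 2, and the count of members called lower was 0 to 1 (1 without CTL 4). All 14 stayed among those of DESeq2 and of library size only. With library size only the median of all muscle genes was 0.17 rather than -0.03, and that of the members 0.52. DESeq2 was run on 21525 genes with any count, without the expression filter of edgeR, and their median was -0.30. With the replicate number as a block (no pairing in muscle or liver: correlations from -0.19 to 0.26 and from -0.53 to 0.50) 12 were called higher in muscle, without Rpl27a and Rpl34. In hypothalamus the block called 0 members, 14 higher and 1 lower at an unadjusted p under 0.05, where 4.89% and 4.55% of all genes did. No member was called in liver or hypothalamus under any alternative.

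For muscle against liver, the 1 member called larger in muscle became 0 with relative log expression factors and without the sex-mismatched libraries, 3 with library size only, and 0 to 2 when a library was left out. For muscle against hypothalamus the 0 became 1 in males only and 0 to 1 when a library was left out. Signs turned for uncalled values: Rpl3 in liver was -0.0576 in males only and in hypothalamus -0.00742 to 0.26 when a library was left out. In muscle, Rps6 was 0.00189 with library size only, 0.0582 in females only and -0.39 to 0.0617 with a library left out. Rps14 was 0.0402 with library size only and -0.28 to 0.0577 with a library left out, and Rpl22l1 -0.0352 to 0.16. Counts in liver and the 434494 counts of CTL muscle 2 limit what can be seen of low members. In all, 1573 of 1801 alternative values were labelled unchanged. Single genes had to keep their direction and side of the threshold. Counts of called members, medians and shares had to stay near the main value. These include the liver and hypothalamus values, where no member was called under any alternative.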

Other observations

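In CTL muscle, Rps14 had 388, 349, 914, 458, 784 and 1053 CPM in mice 1 to 6, and Rps15 had 113, 140, 346, 129, 266 and 305 CPM. As for Rpl28, samples 3, 5 and 6 were the high ones. Rps27l had 147, 95.6, 82.8, 130.2, 80.3 and 84.8 CPM in the same mice, where samples 1 and 4 were the high ones. Among CTL livers, Rps14 had 297, 524, 624, 712, 299 and 279 CPM and Rps27l had 281, 140, 116, 139, 275 and 262 CPM in mice 1 to 6, so that samples 2, 3 and 4 were high for Rps14 and low for Rps27l. By their counts, CTL livers 2, 3 and 4 had Xist (787, 669 and 450 counts) and CTL livers 1, 5 and 6 had Y-linked genes (1746, 361 and 537 counts), so that this split is the same as that by sex. The split of CTL muscle is not, since samples 1, 2 and 3 had Xist and samples 4, 5 and 6 Y-linked genes. CTL livers 2, 3 and 4 were also the shallower ones (2385084, 2252911 and 1955599 total counts, against 16044634, 3564860 and 4223023 in 1, 5 and 6). Sex and depth cannot be told apart there. In CTL muscle, samples 3, 5 and 6 (2469872, 2437712 and 2413625 counts) were shallower than 1 and 4 (4722232 and 8936522 counts). CTL muscle 2, not among the high ones, was the shallowest (434494 counts). In COX10 KO livers 1 to 6, Rps14 had 512, 599, 2749, 241, 906 and 356 CPM. Rps27l had 185, 134, 61.7, 303, 147 and 262 CPM in the same livers. COX10 KO liver 5, with Y-linked genes (186 counts), was high for Rps14 and low for Rps27l, so the COX10 KO livers did not split by sex. These genes were chosen after their values were seen, and no cause was tested.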
